A study of Mus musculus with 8 samples.

Results

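The 35 genes described here encode the proteins that bring fatty acids into muscle cells, release them from triglyceride, carry them into mitochondria and oxidize them there, together with the enzymes that use ketone bodies. They were matched by gene symbol to a list of this pathway, and all 35 were found among the 30743 genes measured and among the 15073 that were tested. The study asked which transcripts change when Akt1 drives growth of fast muscle, and compared poly(A) RNA from the gastrocnemius of 4 DTG and 4 MckrtTA mice. DTG mice carry 1256[3Emut]Mck-rtTA and TRE-myrAkt1, so that doxycycline switches on a myristoylated, constitutively active Akt1 from a muscle creatine kinase promoter, which is active in a subset of muscles only. MckrtTA littermates carry 1256[3Emut]Mck-rtTA alone. Both groups belong to the strain named Myo L8, were aged 4 months, drank doxycycline at 0.5 mg/ml for 2 weeks and were starved overnight before the muscles of both legs were collected. The DTG mice are described as male. Every value below is therefore from fasted muscle.

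Long-chain fatty acids cross the cell membrane with the help of CD36 and fatty acid transport proteins, and acyl-CoA synthetases activate them. Carnitine palmitoyltransferases then move the acyl group into the mitochondrial matrix, where rounds of dehydrogenation, hydration, dehydrogenation and thiolysis shorten the chain and pass electrons to the respiratory chain. The entry step is blocked by malonyl-CoA, which acetyl-CoA carboxylase makes and malonyl-CoA decarboxylase removes. Oxidative fibres rely on this pathway more than fast glycolytic fibres do, and muscle uses it most during fasting and long exercise.

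Values are called signal here, the authors' estimates of the reads of a gene, scaled so that the 75th percentile over all genes is 1000 in each library. Libraries held an estimated 45.6 to 58.6 M reads. Summed signal was 1.91 times as high in MckrtTA as in DTG libraries, so a scale of equal totals gives other fold changes, and these are shown beside the deposited scale. DTG mouse 253 stood apart from the other DTG mice in its summed signal of 90890101, against 60626340 in the lowest DTG library. Akt1, the gene the transgene drives, had a signal of 44224, 63102, 37986 and 69301 in DTG mice 283, 282, 306 and 253, and of 4955, 4047, 5054 and 4433 in MckrtTA mice 255, 280, 281 and 307. All libraries therefore matched their genotype labels. Markers of muscle fibres were abundant in every library, with a summed signal over 7 genes of 4224370 to 8915640 in DTG and 16081500 to 18265400 in MckrtTA mice. The same sum for 6 macrophage markers was 25367 to 62459 in DTG and 1572 to 2036 in MckrtTA mice, and all 6 were called higher in DTG. In bulk muscle, fewer fibres or more cells of other types cannot be told apart from less RNA per fibre.

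On the deposited scale, 15 of the 35 genes were called lower in DTG muscle and 2 higher. A gene was called when its Benjamini-Hochberg adjusted p from limma was under 0.005 and its fold change was 2 or more. The lower calls are 42.9% of the genes, against 16.0% of all tested genes. The higher calls are 5.71%, against 14.6% of all tested genes, and both concern isoforms that are not the main ones of muscle, Cpt1a and Acsl5. The other 18 were not called. For 27 of the 35 genes every DTG mouse lay below every MckrtTA mouse, against 40.4% of all tested genes, and for 2 genes every DTG mouse lay above, against 22.2%. The remaining 6 genes had overlapping groups. The median log2 fold change over the 35 genes was -0.89, with quartiles of -1.17 and -0.55, whereas the median over all tested genes was -0.26. The range went from -1.94 for Acacb to 1.56 for Acsl5.

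**Figure D1:**
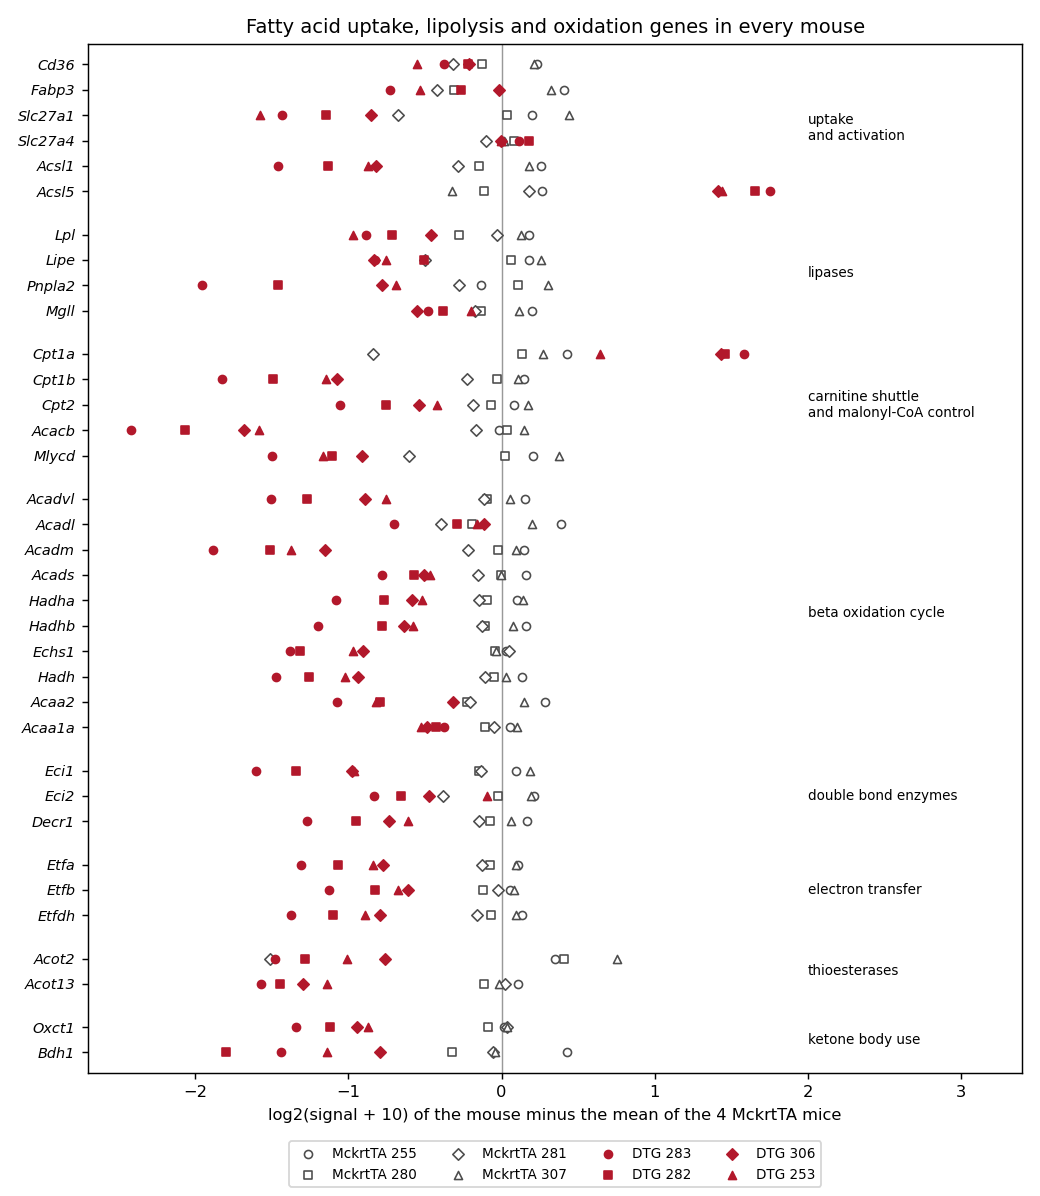
Log2 signal of each of the 35 genes in every mouse, relative to the mean of the 4 MckrtTA mice, with genes grouped by role. Filled red symbols are DTG mice and open symbols are MckrtTA mice. DTG symbols lie left of all control symbols for 27 genes and right of them for Acsl5 and Cpt1a, and MckrtTA mouse 281 lies with the DTG mice for Acot2.

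The sequences before the start sites are shown because most of the genes moved together. RefSeq promoter windows on the GRCm38.p6 build, 250 bases before to 50 after a start site, were found for 30 of the 35 genes. Their median content of G and C was 60.6%, against 52.8% over 27025 genes with a window, with a low of 43.0% for Cd36 and a high of 71.2% for Mgll. Both strands were searched for TCAAGGTCA, the element bound by estrogen-related receptors, and for a direct repeat of AGGTCA half-sites spaced by 1 base, the form bound by PPAR with RXR, allowing 2 mismatches. TCAAGGTCA was in 0 of the 30 genes' windows and in 0.466% of all genes. The direct repeat was in the windows of 3 genes, Cd36, Echs1 and Etfa, which is 10% of the 30, against 4.4% of all genes. At 1 mismatch it was in 0 of the 30 and in 0.644% of all genes, and no match overlapped another motif. The 250 bases before the start are printed below, 5′ to 3′ on the strand of the gene, for the 3 genes with a match, whose matched bases are in capitals. Also printed are Hadha, which starts 273 bases from the divergent start of Hadhb, and the 2 genes that rose, Cpt1a and Acsl5, where neither motif was found. The stretches are chr5:17835897-17836146 on the minus strand for Cd36, chr7:140116422-140116671 on the minus strand for Echs1, chr9:55512244-55512493 on the minus strand for Etfa, chr5:30154981-30155230 on the minus strand for Hadha, chr19:3323051-3323300 on the plus strand for Cpt1a and chr19:55253119-55253368 on the plus strand for Acsl5.
Cd36: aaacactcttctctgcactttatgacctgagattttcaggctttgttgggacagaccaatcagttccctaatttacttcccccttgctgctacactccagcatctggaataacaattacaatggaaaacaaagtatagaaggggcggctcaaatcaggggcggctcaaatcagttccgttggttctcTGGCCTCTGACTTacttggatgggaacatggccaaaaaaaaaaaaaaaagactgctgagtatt
Echs1: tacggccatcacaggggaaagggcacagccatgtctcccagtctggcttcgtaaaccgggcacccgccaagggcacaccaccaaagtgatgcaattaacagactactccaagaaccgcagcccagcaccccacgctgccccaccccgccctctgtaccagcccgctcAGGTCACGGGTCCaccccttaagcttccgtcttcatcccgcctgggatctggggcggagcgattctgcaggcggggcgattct
Etfa: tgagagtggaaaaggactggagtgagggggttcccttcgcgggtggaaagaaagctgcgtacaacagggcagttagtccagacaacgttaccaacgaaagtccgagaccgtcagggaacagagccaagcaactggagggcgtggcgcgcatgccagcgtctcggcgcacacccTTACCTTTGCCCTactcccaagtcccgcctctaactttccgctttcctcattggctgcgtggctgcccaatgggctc
Hadha: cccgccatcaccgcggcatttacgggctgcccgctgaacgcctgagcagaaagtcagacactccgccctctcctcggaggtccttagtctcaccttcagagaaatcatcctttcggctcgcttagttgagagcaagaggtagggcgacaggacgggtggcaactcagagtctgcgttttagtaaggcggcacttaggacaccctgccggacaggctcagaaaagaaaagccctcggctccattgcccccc
Cpt1a: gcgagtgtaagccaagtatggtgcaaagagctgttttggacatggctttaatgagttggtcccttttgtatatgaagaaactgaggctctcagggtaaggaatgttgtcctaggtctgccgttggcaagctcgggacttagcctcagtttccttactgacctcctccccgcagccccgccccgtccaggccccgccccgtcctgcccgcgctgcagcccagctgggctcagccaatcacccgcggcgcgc
Acsl5: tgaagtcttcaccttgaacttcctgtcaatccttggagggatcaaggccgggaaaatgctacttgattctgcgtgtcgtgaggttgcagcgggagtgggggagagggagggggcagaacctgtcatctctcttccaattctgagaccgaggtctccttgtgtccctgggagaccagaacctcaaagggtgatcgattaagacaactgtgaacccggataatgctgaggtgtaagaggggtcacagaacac
In Cd36 the capitals span 63 to 51 bases before the start, in Echs1 83 to 71 and in Etfa 77 to 65. The Cd36 start used here lies inside the deposited span of the gene, bases 17781690 to 17888959. Any start further upstream in that span was not searched. A match of this kind is a description of the letters and not a bound site.

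Of the 6 uptake and activation genes, 2 fell, 1 rose and 3 were not called, where 16.0% of all tested genes fell and 14.6% rose. With equal totals 0 of the 6 were called lower and 2 higher. Cd36, the main fatty acid translocase of muscle, had a signal of 31680, 35435, 35611 and 28062 in DTG mice 283, 282, 306 and 253, and of 48299, 37739, 33070 and 47752 in MckrtTA mice 255, 280, 281 and 307. Fabp3, the cytosolic fatty acid-binding protein of heart and muscle, had means of 25640 ± 5543 (SD, n = 4) in DTG and 34011 ± 9863 (SD, n = 4) in MckrtTA muscle. The groups overlapped for both genes, with log2 fold changes of -0.34 for Cd36 (adjusted p = 0.0711) and -0.39 for Fabp3 (adjusted p = 0.157). Per kilobase of transcript Fabp3 had the highest level of the 35 genes in both groups, 31154 in DTG and 41326 in MckrtTA muscle. Slc27a4, a fatty acid transport protein of wide expression, stood at 1163 ± 73.6 in DTG and 1106 ± 58.7 in MckrtTA muscle, and its log2 difference of 0.07 had a 95% interval of -0.14 to 0.28.

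Slc27a1, the insulin-responsive fatty acid transport protein of muscle, fell. Its signal was 3463, 4230, 5192 and 3139 in the DTG mice, in the same order of mice, against 10777, 9610, 5860 and 12707 in the controls, so that only the control mouse 281 came near the DTG values. The log2 fold change was -1.25 ± 0.24 (SE, adjusted p = 0.00135), but without mouse 255 or mouse 280 the adjusted p was 0.00554 or 0.00506 and the call was lost. Acsl1, the acyl-CoA synthetase that muscle expresses most, had 15106, 18945, 23542 and 22725 in DTG mice against 49616, 37516, 34191 and 46997 in controls. This is a log2 difference of -1.07 ± 0.18 (SE, adjusted p = 0.000511), and it came to -0.94 without mouse 283 and -0.99 without mouse 255, short of the fold change of 2.

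Acsl5, a synthetase of the same family best known from intestine and liver, rose instead. In mm10 the gene spans bases 55253369 to 55296628 of chromosome 19, plus strand. Its signal was 2227, 2076, 1754 and 1786 in DTG mice and 786, 602, 739 and 519 in MckrtTA mice, with a wide gap between the groups. The log2 fold change was 1.56 ± 0.15 (SE, adjusted p = 2.3e-05) and it was called without any of the 8 mice in turn. Acsl5 shares 404 exon bases with Zdhhc6 on the opposite strand, and Zdhhc6 had a log2 fold change of -0.72, the other direction. Per kilobase Acsl5 remained low, with 462 in DTG muscle against 5153 for Acsl1. Macrophage markers were higher in the same mice, as given above, and their part in the Acsl5 signal was not tested.

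On the deposited scale lipase genes were lower in all DTG mice, though Pnpla2 was the only one of the 4 called. Over all tested genes 40.4% had every DTG mouse below every control, and 16.0% were called lower. With equal totals 0 of the 4 were called, and their median log2 fold change was 0.20. Pnpla2, adipose triglyceride lipase, which starts the breakdown of stored triglyceride, had a signal of 6830, 9628, 15441 and 16428 in DTG mice against 24196, 28528, 21845 and 32746 in controls. DTG mice 283 and 282 were far below 306 and 253. The log2 fold change of -1.22 ± 0.27 (SE, adjusted p = 0.00307) lost its call in 6 of the 8 fits without a mouse, with -0.98 without 283 as the smallest size and adjusted p values up to 0.0115 without 307. Lpl, the lipase that frees fatty acids from circulating triglyceride, stood at 42751 ± 6825 (SD, n = 4) against 72148 ± 9855 (SD, n = 4), a log2 difference of -0.76 (adjusted p = 0.00177) that is below a fold change of 2. Lipe, hormone-sensitive lipase, was at 1908 ± 213 against 3225 ± 693 and Mgll, which cleaves the last fatty acid from glycerol, at 4284 ± 466 against 5672 ± 718. Their log2 differences of -0.73 and -0.40 were not called. Adipocyte markers overlapped between the groups, with a summed signal over 6 genes from 842 to 4088 in DTG and from 911 to 6579 in MckrtTA mice and 0 of 6 were called.

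At the entry of fatty acids into mitochondria, the muscle isoform of carnitine palmitoyltransferase fell and the isoform known from liver rose. Cpt1b, the muscle isoform, spans bases 89416405 to 89425862 of chromosome 15, minus strand. Its signal was 11995, 15120, 20192 and 19253 in DTG mice 283, 282, 306 and 253, and 47081, 41603, 36395 and 45854 in MckrtTA mice 255, 280, 281 and 307. The groups were far apart, and the log2 fold change was -1.38 ± 0.17 (SE, adjusted p = 0.000103). Cpt1a, the liver isoform, spans bases 3323301 to 3385733 of chromosome 19, plus strand, and had 5532, 5067, 4981 and 2874 in DTG mice against 2482, 2019, 1026 and 2225 in controls. DTG mouse 253 was close to the controls and MckrtTA mouse 281 was the lowest of all.

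Cpt1a rose by a log2 difference of 1.28 ± 0.30 (SE, adjusted p = 0.00377), and it was less firm than the fall of Cpt1b, which was called in all 8 fits without a mouse. The call of Cpt1a was lost in 6 of those 8, at adjusted p values of 0.0121 without 283, 0.0122 without 282, 0.0121 without 306, 0.00927 without 280 and 0.00711 without 307, and at a log2 fold change of 0.999, just under the fold limit, without 281. Without mice 253 and 281 together, a choice made after the values were seen, it was 1.21 with adjusted p = 7.5e-06. Summed macrophage markers were 62459, 55427, 47082 and 25367 in DTG mice 283, 282, 306 and 253, the same order as the Cpt1a signal. Summed fibroblast markers had that order too, with 587197, 504968, 397551 and 128124. Summed muscle fibre markers had the reverse order, with 4224370, 4586310, 5239520 and 8915640. So did the summed signal of the whole library, from 60626340 in mouse 283 to 90890101 in mouse 253. Of the single macrophage markers, Itgam was highest in DTG mouse 253, at 10023, and Cd14 in DTG mouse 282, at 2733. The part of macrophages and fibroblasts in the Cpt1a signal was not tested. Cpt2, the inner membrane transferase, stood at 4413 ± 817 (SD, n = 4) in DTG and 7071 ± 775 (SD, n = 4) in MckrtTA muscle, a log2 difference of -0.69 (adjusted p = 0.00219) that was not called.

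Acacb and Mlycd, which make and remove the malonyl-CoA that blocks this entry step, both fell. Acacb, the mitochondrial acetyl-CoA carboxylase on chromosome 5 from 114165518 to 114250758 on the plus strand, had the largest fall of the 35 genes. Its signal was 8999, 11503, 15016 and 16097 in DTG mice and 47700, 49507, 42913 and 53302 in controls, with a log2 fold change of -1.94 ± 0.18 (SE, adjusted p = 2.0e-05). Mlycd, malonyl-CoA decarboxylase, had 3765, 4951, 5668 and 4756 against 12332, 10852, 7017 and 13835, a log2 fold change of -1.17 ± 0.21 (SE, adjusted p = 0.000849). Control mouse 281 was again the lowest control for both genes. Acaca, the cytosolic carboxylase of lipid synthesis and not a member of the 35, stood at 1992 ± 337 against 2409 ± 416, and its log2 difference of -0.27 was not called (adjusted p = 0.133).

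**Figure D2:**
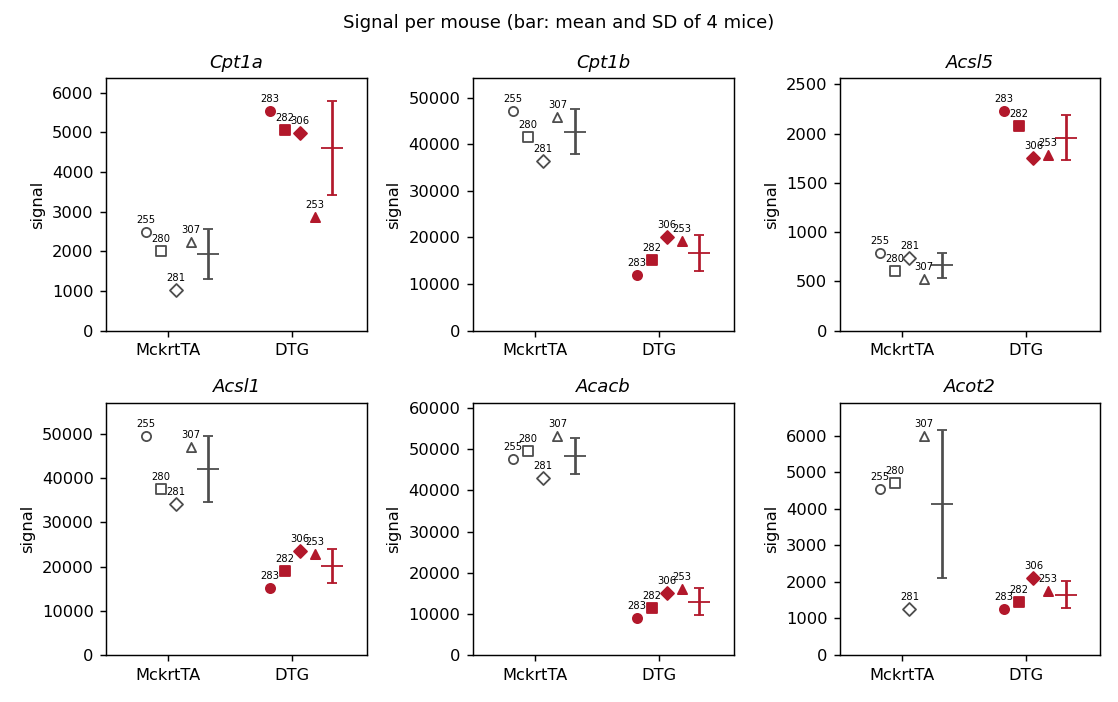
Signal of Cpt1a, Cpt1b, Acsl5, Acsl1, Acacb and Acot2 in each mouse, on linear axes from 0, with the mean and SD of 4 mice beside the points. Cpt1a and Acsl5 are higher in DTG mice, Cpt1b, Acsl1 and Acacb are lower, and the Acot2 signal of 1243 in MckrtTA mouse 281 lies below all 4 DTG mice.

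Acyl-CoA dehydrogenases, which take the initial step of each round and differ in the chain length they accept, had 2 of 4 genes called lower, Acadm and Acadvl. Acadm, the medium-chain enzyme, is on chromosome 3 from 153922359 to 153944432 on the minus strand and had a signal of 12236, 15831, 20258 and 17400 in DTG mice against 49791, 44363, 38794 and 48169 in controls. Its log2 fold change was -1.48 ± 0.16 (SE, adjusted p = 4.3e-05). Acadvl, the very-long-chain enzyme, went from 34836 ± 3071 (SD, n = 4) in MckrtTA to 16497 ± 3868 (SD, n = 4) in DTG muscle, a log2 difference of -1.10 (adjusted p = 0.000313) that came to -0.97 without mouse 283. Acads, the short-chain enzyme, differed by -0.58 (adjusted p = 0.000766) with no overlap between the groups, which is below the fold change of 2. Acadl, the long-chain enzyme, was at 18648, 24773, 27958 and 27164 in DTG mice and at 39663, 26463, 23068 and 34775 in controls, so that its groups overlapped, and its log2 difference of -0.32 had a 95% interval of -0.76 to 0.13. The intervals of Acadm, -1.84 to -1.12, and Acadl do not meet, although the difference between these genes was not tested.

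Enzymes of the later steps were lower in every DTG mouse. Echs1, the short-chain hydratase, had 4560, 4776, 6339 and 6081 in DTG mice against 12153, 11569, 12277 and 11590 in controls, where the spread was small. Its log2 fold change was -1.14 ± 0.12 (SE, adjusted p = 3.6e-05). Hadh, the dehydrogenase for short and medium chains, fell from 19191 ± 1390 (SD, n = 4) to 8583 ± 1411 (SD, n = 4), a log2 fold change of -1.17 (adjusted p = 4.5e-05). Hadha and Hadhb, the subunits of the trifunctional protein that handles long chains, had log2 differences of -0.74 (adjusted p = 0.00135) and -0.80 (adjusted p = 0.00124), neither of them called. The thiolases Acaa2 of mitochondria and Acaa1a of peroxisomes had differences of -0.75 (adjusted p = 0.00424) and -0.45 (adjusted p = 0.000985), again with separate groups but a fold change under 2. Over the 10 genes of the cycle, 4 were called lower, 9 had separate groups and the median log2 fold change was -0.77. Over all tested genes 16.0% were called lower, 40.4% had every DTG mouse below every control and the median was -0.26. With equal totals 0 of the 10 were called.

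Unsaturated fatty acids need isomerases and a reductase to enter the cycle. Of these, Eci1, a mitochondrial enoyl-CoA isomerase, fell, with 2707, 3247, 4189 and 4237 in DTG mice against 8808, 7474, 7519 and 9403 in controls, a log2 fold change of -1.22 ± 0.16 (SE, adjusted p = 0.000117). Decr1, the mitochondrial dienoyl-CoA reductase, differed by -0.89 (adjusted p = 0.000508) with separate groups and was not called, though without mice 253 and 281 it reached -1.03. Eci2, an isomerase found in mitochondria and peroxisomes, differed by -0.51 (adjusted p = 0.0303), and DTG mouse 253 with 5963 lay above control mouse 281 with 4874. The electron transfer flavoprotein takes electrons from the acyl-CoA dehydrogenases. Its subunits Etfa and Etfb had log2 differences of -0.9986 (adjusted p = 0.000129), just short of the fold limit, and -0.81 (adjusted p = 0.000278). Etfa was called without mouse 306 (-1.07), 253 (-1.05), 280 (-1.02) or 281 (-1.04). Etfdh, which hands these electrons on to ubiquinone, was at 9800 ± 1677 (SD, n = 4) against 19991 ± 1929 (SD, n = 4), a log2 fold change of -1.04 (adjusted p = 0.00014) that was under the fold limit without 283 (-0.93) or 255 (-0.99).

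Acot13, a thioesterase that splits long acyl-CoA, had the smallest adjusted p of the 35 genes. Its signal was 2119, 2316, 2569 and 2866 in DTG mice and 6811, 5820, 6421 and 6251 in MckrtTA mice, so that the groups were far apart and each was tight. The log2 fold change was -1.36 ± 0.11 (SE, adjusted p = 8.7e-06). Acot2, the mitochondrial thioesterase, had 1268, 1454, 2099 and 1761 in DTG mice, and 4538, 4710, 1243 and 5998 in control mice 255, 280, 281 and 307. Mouse 281 decided its result, with a log2 difference of -1.13 (adjusted p = 0.0418) over all mice and -1.64 (adjusted p = 2.0e-04) without it. Acot1, the close cytosolic relative of Acot2, was at 233 ± 126 against 350 ± 202, and reads that fit both genes could be split between them by the authors' counting.

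Both genes of ketone body use were called lower on the deposited scale, where 16.0% of all tested genes were called lower and 14.6% higher. With equal totals neither was called, at -0.12 for Oxct1 and -0.35 for Bdh1. Oxct1, which activates acetoacetate in tissues outside the liver, had 14791, 17308, 19554 and 20519 in DTG mice against 37975, 35370, 38516 and 38398 in controls. Its log2 fold change was -1.07 ± 0.12 (SE, adjusted p = 4.9e-05), and -0.98 without mouse 283. Bdh1, which oxidizes beta-hydroxybutyrate, had 1803, 1404, 2827 and 2226 against 6586, 3926, 4711 and 4753, a log2 fold change of -1.29 ± 0.22 (SE, adjusted p = 0.000695). Among 6 other ketone body genes, Acat1, the mitochondrial acetoacetyl-CoA thiolase, was called lower (-1.06, adjusted p = 0.00013) and Slc16a7, a monocarboxylate transporter of low signal here, was called higher (1.64, adjusted p = 0.00317). Aacs, which uses acetoacetate in the cytosol, and Bdh2, a cytosolic dehydrogenase of low signal here, had differences of 0.99 and -0.31 and were not called.

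Ratios of 2 genes within a library do not move with the scaling between libraries. For 7 such ratios the difference of the group means of the log2 ratio was tested by an exact permutation test over all 70 splits of the 8 mice, two-sided, whose smallest possible p is 0.0286. The Cpt1b signal was 2.17, 2.98, 4.05 and 6.70 times that of Cpt1a in DTG mice 283, 282, 306 and 253, and 19.0, 20.6, 35.5 and 20.6 times in MckrtTA mice 255, 280, 281 and 307. This difference of -2.67 on the log2 scale reached the smallest p, 0.0286 by the exact test and 0.04 after adjustment over the 7 ratios. Per kilobase of transcript the mean ratio of Cpt1b to Cpt1a was 5.93 in DTG and 35.7 in MckrtTA muscle, so the muscle isoform remained the more abundant in every mouse. Ratios of Acacb to Acaca, Slc27a1 to Slc27a4 and Etfa to Etfb were lower in all DTG mice, with log2 differences of -1.67, -1.33 and -0.19, and that of Mlycd to Acacb was higher, with 0.77. Each of these also had an exact p of 0.0286 and an adjusted p of 0.04. The Hadha to Hadhb ratio was 0.833 ± 0.0245 in DTG and 0.799 ± 0.0279 in MckrtTA muscle, and this pair with divergent starts did not differ beyond its spread (log2 difference 0.06, exact p = 0.2). Pnpla2 to Lipe ratios overlapped as well (log2 difference -0.49, exact p = 0.314), since DTG mice 283 and 282 had 3.85 and 4.34 and mice 306 and 253 had 8.73 and 8.80.

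**Figure D3:**
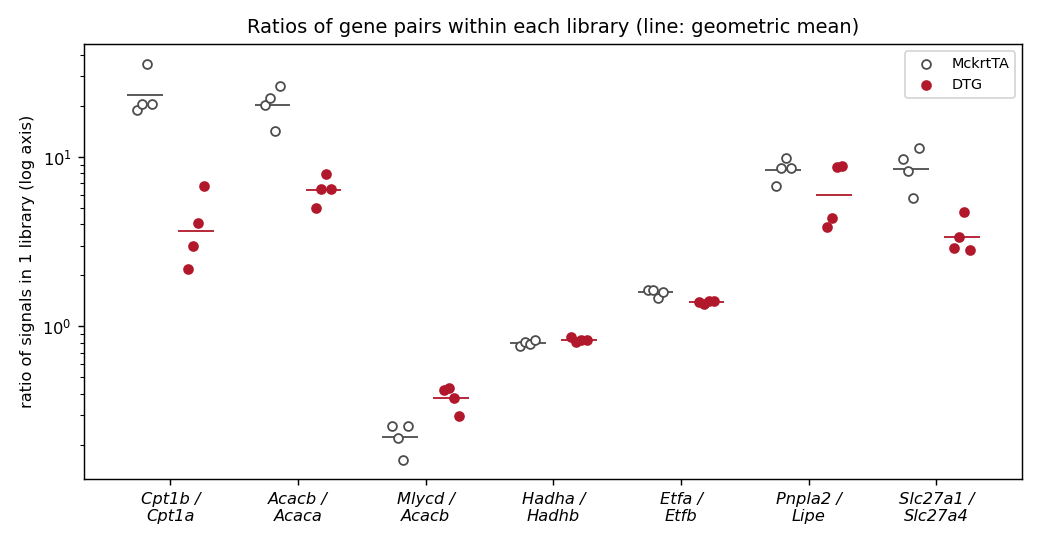
Ratios of the signals of 7 gene pairs in each library, on a log axis, with the geometric mean of 4 mice as a line. DTG and MckrtTA points are fully apart for 5 pairs, most of all for Cpt1b to Cpt1a, and overlap for Hadha to Hadhb and for Pnpla2 to Lipe.

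The level of the pathway depends on what it is set against. On the deposited scale the 35 genes together had a signal of 323504, 391872, 463608 and 425367 in DTG mice 283, 282, 306 and 253, and of 825681, 691120, 649485 and 816115 in MckrtTA mice 255, 280, 281 and 307, with no overlap. As a share of all signal in the library, the same genes took 0.534%, 0.615%, 0.698% and 0.468% in DTG mice and 0.617%, 0.525%, 0.477% and 0.604% in controls. These shares overlap, with means of 0.579% ± 0.0996 (SD, n = 4) and 0.556% ± 0.0665 (SD, n = 4). With totals set equal, 0 of the 35 genes were called lower, against 2.00% of all tested genes, and 3 were called higher, Acsl5, Cpt1a and Slc27a4, against 30.8% of all tested genes. The median of the 35 genes was then 0.06 and that of all tested genes 0.65. The log2 difference of 15 of the 35 genes turned from negative to positive on that scale, and Acacb was at -0.99, Acsl5 at 2.504 and Cpt1a at 2.22. A change of scale moves the genes of a library together, so it leaves the order of the genes and their distance from the typical gene nearly as they were.

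**Figure D4:**
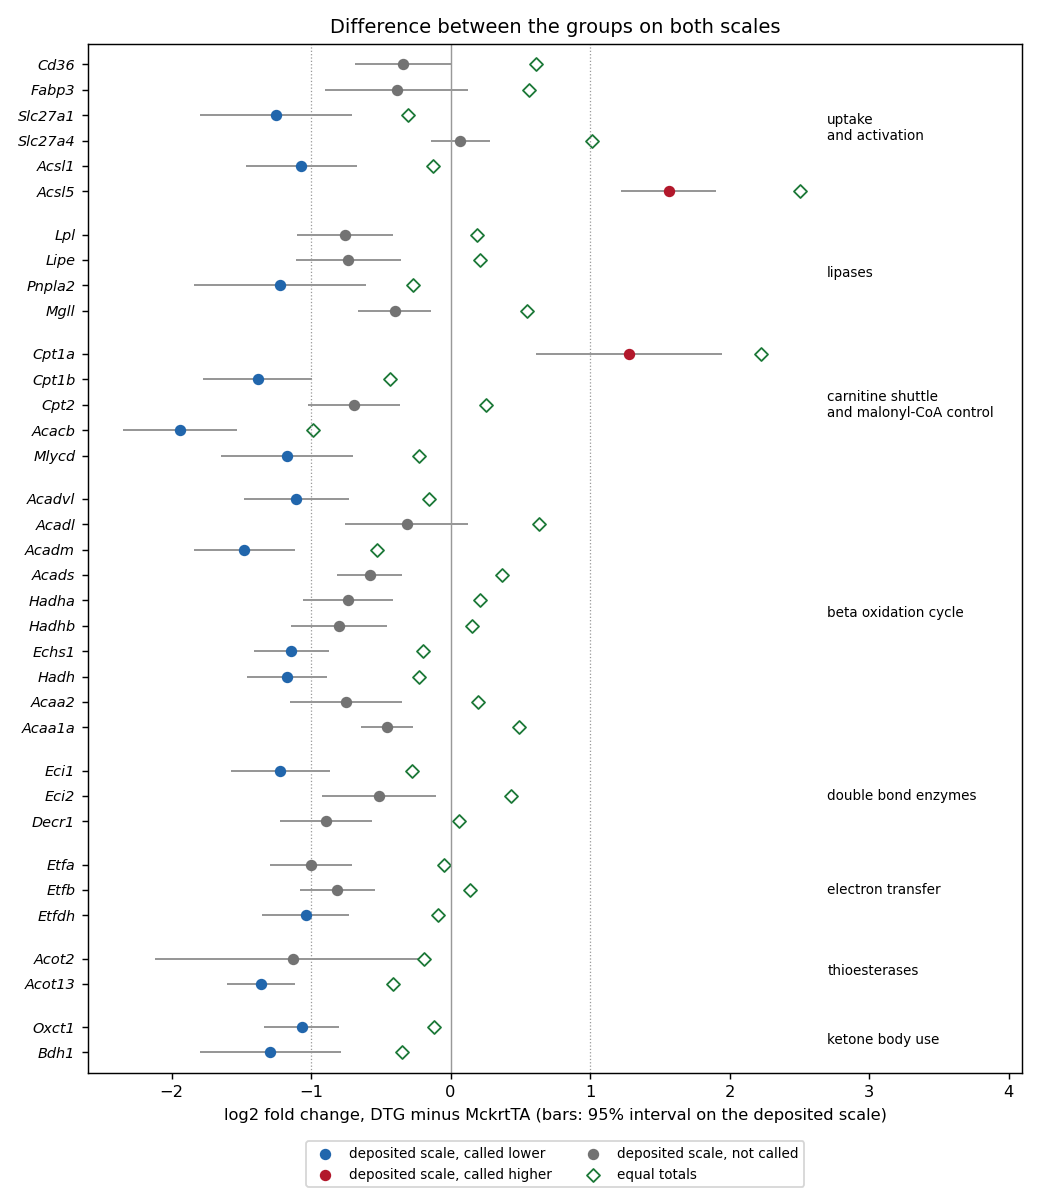
Log2 fold change of the 35 genes with 95% intervals on the deposited scale, as filled circles coloured by call, and with equal totals, as open green diamonds. Dotted lines mark a fold change of 2. The circles lie left of 0 for 32 genes and the diamonds for 17.

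**Figure D5:**
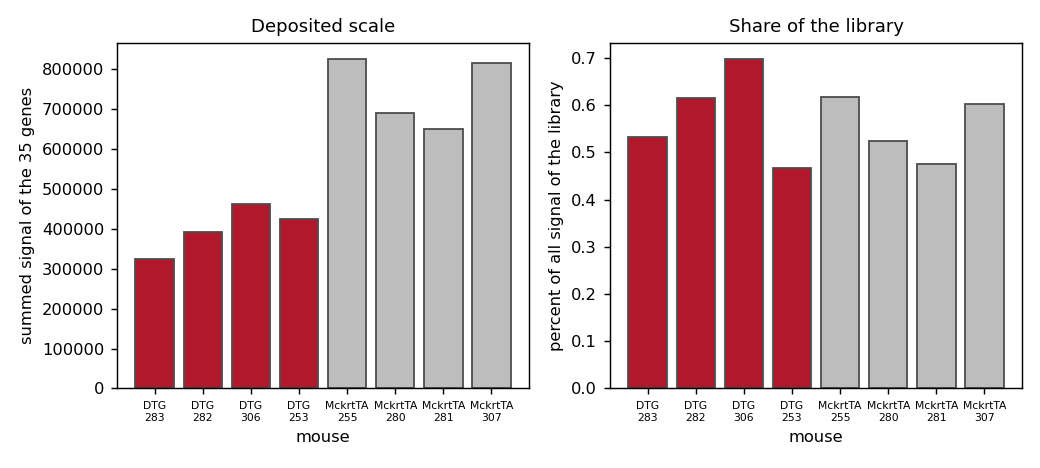
Summed signal of the 35 genes on the deposited scale and their percent of all signal in each library, with DTG mice in red and MckrtTA mice in grey. Bars of the groups do not overlap on the left, where DTG mice reach 463608 and controls start at 649485, and overlap on the right.

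Citrate synthase, encoded by Cs, is a common measure of mitochondrial content and was itself lower in DTG muscle, with a log2 fold change of -1.36 ± 0.19 (SE, adjusted p = 0.000187). Within each library the signal of each gene was divided by that of Cs. For 14 of the 35 genes all DTG mice then lay above all controls, against 68.8% of all tested genes, for 1 they lay below, against 3.08%, and for 20 the groups overlapped. Acacb was the 1 gene below, by -0.58 on the log2 scale. Cpt1b, Acadm and Acot13 kept pace with Cs, with differences of -0.02, -0.12 and -0.0018 and overlapping groups. Cd36, Acadl and Mgll were above it by 1.02, 1.05 and 0.96, and the median over the 35 genes was 0.47.

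Single mice had a share in several of these results. MckrtTA mouse 281 was the lowest of the 4 controls for 25 of the 35 genes, against 23.2% of all tested genes. Its signals for Acot2, Cpt1a, Mlycd and Slc27a1 were the furthest below the other controls. Pdk4 and Ucp3, genes outside the 35 that respond to fasting, were also low in this mouse and are named here after their values were seen. Pdk4, the kinase that shuts pyruvate dehydrogenase, had 31563 in mouse 281 and 154581 to 338477 in the other controls. Ucp3, a mitochondrial carrier, had 5149 against 20613 to 28590. Klf15, also induced by fasting, was not low in mouse 281, with 4768 against 4050 to 5397 in the other controls. DTG mouse 283 was the lowest DTG mouse for 25 genes, and mouse 306 was the highest for 17 and mouse 253 for 13. Both lanes gave the same direction, with medians over the 35 genes of -0.99 in lane 1 and -0.83 in lane 8. A test of whether the difference depended on lane found 0 of the 35 genes and 0 of all genes at an adjusted p under 0.05, and 0 and 337 at an unadjusted p under 0.05, by limma. The median of the 35 genes was -0.98 without mouse 253, -0.94 without mouse 281 and -1.03 without both, when 18 genes were called lower and 2 higher.

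Genes that work beside the 35 were taken from lists of the same pathway, and 28 of 81 tested were called lower and 7 higher, beside 16.0% and 14.6% of all tested genes. With equal totals 1 of the 81, Klf15, was called lower. Higher calls on that scale covered 1 of 6 carnitine, 2 of 12 peroxisomal, 4 of 9 uptake and 5 of 12 lipase or droplet genes. They also covered 0 of 10 mitochondrial, 1 of 5 thioesterase, 2 of 6 ketone body, 1 of 17 regulator and 3 of 9 PPAR target genes. Over all tested genes the share was 30.8%. Angptl4 and Plin2 are in both the droplet list and the PPAR target list. Of 6 other carnitine genes only Crat, which buffers acetyl-CoA as acetylcarnitine, was called, at -1.50 (adjusted p = 3.1e-05). Crot, the peroxisomal octanoyltransferase, Slc22a5, the carnitine importer, and Slc25a20, the carrier between Cpt1 and Cpt2, had differences of -0.94, -0.74 and -0.60, none of them called. Of 12 peroxisomal genes, Abcd2, which imports very long acyl-CoA, fell to a log2 fold change of -1.73 (adjusted p = 2.1e-06) and Ehhadh, the bifunctional enzyme, to -1.32. Decr2, the peroxisomal dienoyl-CoA reductase, rose by 1.25 (adjusted p = 2.8e-05), opposite to the difference of Decr1. Among 10 other mitochondrial enzymes of acyl-CoA and propionyl-CoA, 7 were called lower and every DTG mouse was below every control for all 10. Examples are Pcca, a subunit of propionyl-CoA carboxylase, at -1.61, Acad11 at -1.38 and Acadsb, which acts on branched short chains, at -1.34. Among 5 other thioesterases, Acot11 was called lower at -1.03 and Acot9, at 0.69, was higher in every DTG mouse without being called.

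Droplet and uptake genes outside the 35 included large rises and large falls. Plin2, which coats lipid droplets, had a signal of 12777, 12554, 9751 and 9378 in DTG mice 283, 282, 306 and 253, and of 2503, 2007, 2218 and 1979 in MckrtTA mice 255, 280, 281 and 307. The log2 difference was 2.34 ± 0.13 (SE, adjusted p = 1.9e-06). Angptl4, a secreted inhibitor of Lpl, had 8272, 9322, 5147 and 5978 against 638, 658, 140 and 1380, a log2 fold change of 3.67 ± 0.57 (SE, adjusted p = 0.000357). Fabp5, a fatty acid-binding protein of skin, fat and macrophages, rose by 3.26 (adjusted p = 4.6e-05), and its lowest DTG value, 1997, was again in mouse 253. Lipg, endothelial lipase, was called higher but had a signal of 31.7 to 44.7 in DTG mice and of 0 to 2.25 in controls, near the value of 1 read. In the other direction Abhd5, the activator of Pnpla2, fell, with -1.08 (adjusted p = 5.2e-05), as did Gpihbp1, which holds Lpl on capillaries, with -1.27 (adjusted p = 0.000179). Over 12 lipase partners and droplet coats, 3 were called higher and 4 lower, beside 14.6% and 16.0% of all tested genes. The other lower calls, Vldlr at -1.92 (adjusted p = 0.000344) and Plin4 at -1.75 (adjusted p = 0.00124), were the largest falls of this list. Its summed signal was 49618 to 88156 in DTG and 125041 to 151605 in MckrtTA mice. Over 9 other uptake and activation genes 1 was called in each direction, Fabp5 and the acetyl-CoA synthetase Acss1. The groups of Acss1 overlapped despite a log2 fold change of -1.14. Slc27a3 and Slc27a6, of the same family as Slc27a1, had differences of 0.91 (adjusted p = 0.000506) and 1.31 (adjusted p = 0.0224) and were not called. Slc27a6 had a low signal, 8.42 to 57.9 in DTG mice, and its groups overlapped.

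Regulators of the pathway depended on the scale too. The list of 17 holds PPAR and ERR receptors, RXR partners, coactivators, corepressors and other transcription factors such as Klf15. Of these genes 11 were called lower and 0 higher, where 16.0% of all tested genes were called lower and 14.6% higher. Their median log2 fold change was -1.08. With equal totals 1 was called lower, Klf15, and 1 higher, Ppargc1b, and the median was -0.13. Ppargc1b, a coactivator related to Ppargc1a, was higher in every DTG mouse on the deposited scale, at a log2 difference of 0.38 that was not called (adjusted p = 0.0249). Ppargc1a itself was called lower on that scale, at -1.75 (adjusted p = 2.8e-05), as was the receptor gene Ppara, at -1.69 (adjusted p = 0.000316). Klf15, a factor induced by fasting, had a log2 fold change of -2.54 (adjusted p = 8.7e-06), Rxra of -1.80 (adjusted p = 9.2e-07), Rxrg of -1.64 (adjusted p = 6.0e-06) and Esrra of -1.39 (adjusted p = 5.8e-06). Esrra was at 2798, 2908, 3207 and 2469 in DTG mice and at 7389, 6890, 8269 and 7290 in controls, where mouse 281 was the highest and not the lowest. Of 9 further targets of PPAR in muscle, 3 were called higher and 0 lower. Over all tested genes 14.6% were called higher and 16.0% lower. The higher calls were Angptl4 and Plin2, already counted among the droplet genes, and Ucp2. Ucp2, an uncoupling protein also abundant in macrophages, had a log2 fold change of 3.56 (adjusted p = 7.5e-06). The other targets were not called, and the median log2 fold change of the list was -0.31. Targets among the fatty acid genes described above are not in this list, which therefore does not cover all PPAR targets.

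Markers of other cells moved with these groups and are given for each list. All 6 macrophage markers and 4 of 5 fibroblast markers were called higher, and the summed fibroblast signal was 128124 to 587197 in DTG and 71498 to 87834 in MckrtTA mice. Muscle fibre markers were called lower for 3 of 7, with a median log2 fold change of -1.63. For 6 of the 7 every DTG mouse lay below every control. With equal totals 2 of them were called lower and their median was -0.68. The 35 genes had medians of -0.89 on the deposited scale and 0.06 with equal totals. Markers of slow and oxidative fibres were called lower for 3 of 7, with a median of -1.20. Their summed signal was 91023 to 175583 in DTG against 231603 to 412133 in MckrtTA mice. Among endothelial markers 2 of 6 were called lower. The part of these shifts in the results for the 35 genes was not tested. Exon overlap with a protein-coding gene was found for 9 of the 35 genes in the GENCODE M21 annotation, 7 on the opposite strand. Acadvl shares 1151 bases with Dvl2, whose log2 difference was -0.18, and Acaa1a shares 290 with Myd88, whose log2 fold change was 2.23. The kit keeps the strand, but whether the counting used it is not given in the sources used here, and Cpt1b shares 2744 bases on its own strand with the read-through gene Gm44502.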

How the data were processed

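Poly(A) RNA of 8 gastrocnemius samples, 4 DTG and 4 MckrtTA, was sequenced as paired reads of 50 bases in lanes 1 and 8. The labels name a HiSeq 2000. Groups come from the genotype in the labels, and each sample is a separate mouse, so p-values measure the spread between mice.

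The authors mapped reads to mm10 transcripts with RSEM, the labels naming BWA as well, and deposited a signal value per gene, the estimated reads scaled by the upper quartile of each library and not divided by gene length. Only 88.3% to 89.6% of low values were whole reads to a tolerance of 0.1, so whole reads were not recovered and no test on counts was run. Deposited component loadings and a copy of the table without annotation were not used, and 0 columns of libraries were left unused.

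The log2 values, after 10 was added to each signal, went into limma 3.58.1 (R 4.3.3) without covariates and with trended variance moderation. Testing covered 15073 genes, those reaching 25 in at least 3 libraries. A call required a fold change of 2 and an adjusted p below 0.005, as in the methods. Tested on simulated data for these 15073 genes, limma recovered 89% of 4-fold and 78% of 2.5-fold changes, with 1 false call. The simulated noise was normal on the log2 scale and independent between genes, and few genes changed, evenly up and down. In the data 16.0% of tested genes were called lower and 14.6% higher, so these rates need not hold for the calls here. Whether the choice of scaling adds false calls was not tested. Ratios, figures and promoter windows were computed in Python 3.11.15 with numpy 2.4.6, pandas 2.3.3, scipy 1.17.1 and matplotlib 3.10.9. Transcript lengths and exon overlaps come from GENCODE M21, and promoter sequences from RefSeq on GRCm38.p6, the assembly of mm10. Gene positions are deposited ones, counted here from 1.

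The 35 genes and all lists were chosen with earlier results of these data known, and 1 gene was taken out of the lists and is not reported here. Genes outside the 35 are named by a rule that takes Akt1, Cs, the partners in the ratios, the 4 genes with the smallest adjusted p of each list and any called gene that moves against its list. Exceptions are Pdk4, Ucp3, Acot1, Ppargc1a, Ppargc1b, Ppara, Vldlr, Plin4, the markers Itgam and Cd14, and the overlapping genes, named after their values were seen. Alternatives changed the amount added to 1 or 50, the minimum signal to above 0 or to 100, the scaling, the moderation, the thresholds and the lanes, and left out each mouse in turn. Leaving out mice 253 and 281 together was added after the values were seen.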

Additional observations from a re-analysis of the deposited data

Results flagged for a closer look

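In groups of 4 mice, a value was singled out when its gap to the nearest other mouse was a larger part of the whole range than Dixon's 95% limit, which chance exceeds in about 1 in 20 groups. Of 144 groups over 72 genes, 3 had such a value and 0 of the 35 genes were among them. Acaca was at 2491.5 in DTG mouse 253, against 1785 to 1900 in the other DTG mice. Acot7, an acyl-CoA thioesterase, was at 1706 in the same mouse, against 1222 to 1258 in the others. Lipg was at 2.25 in MckrtTA mouse 280, the value of 1 read, and at 0 in the other controls.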

How the results depend on the processing

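Of the 15 genes called lower, 0 remained with equal totals, 5 by trimmed-mean and 4 by median-of-ratios scaling, and the median of the 35 genes, -0.89 on the deposited scale, was 0.058, -0.61 and -0.60. Over all genes 2405 lower calls became 301, 1334 and 1281, and 2207 higher calls became 4640 with equal totals. The share of higher calls was 47.9% on the deposited scale and 93.9%, 66.8% and 68.0% on the others, which shift the median of all genes by 0.92, 0.27 and 0.28. With equal totals the log2 differences of 15 of the 35 genes turned positive: Cd36 0.61, Fabp3 0.56, Lpl 0.19, Lipe 0.21, Mgll 0.55, Cpt2 0.26, Acadl 0.63, Acads 0.37, Hadha 0.21, Hadhb 0.15, Acaa2 0.20, Acaa1a 0.49, Eci2 0.43, Decr1 0.058 and Etfb 0.14. Outside the 35, so did those of Acaca 0.67, Crot 0.0090, Slc22a5 0.20, Slc25a20 0.35, Scp2 0.048, Them4 0.21, Acot7 0.50 and Bdh2 0.55, and Acaca was at 0.0073 by trimmed-mean and 0.021 by median-of-ratios scaling. That the scaling sets these signs follows from its construction, and which scale fits the RNA content of the muscles was not tested.

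Only 1 of the 35 genes was called higher with genes above 0 in 1 library tested and with no trend, since Cpt1a then lost its call. Lane 1 alone, with 2 mice a group, called 0 of the 35 genes lower and 0 higher, and 4 and 54 of all genes. Without a minimum fold, 26 of the 35 and 4971 of all genes were lower. Leaving out each mouse gave 10 to 16 of the 35 genes lower and 1 to 2 higher, a median of -0.98 to -0.77, and 2090 to 2878 lower and 1882 to 2761 higher calls over all genes. In every one of these fits 10 of the 17 called genes were called, namely Acacb, Acadm, Acot13, Acsl5, Bdh1, Cpt1b, Echs1, Eci1, Hadh and Mlycd. No paired analysis was possible because the labels give no replicate numbers and do not say which mice were littermates. With lane as a covariate 15 of the 35 genes were called lower and 2 higher. The amount added before the logarithm changed no call of the 35 genes. Signal is an estimate without the reads behind it, so no interval for counting error is given, and 4 mice a group limit what a difference under a fold change of 2 can show.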
